A study of Mus musculus with 6 samples.

Results

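The respiratory chain of the mouse lung carcinoma line LLC was examined at the level of its transcripts. Members were the genes whose symbols in the deposited expression table begin with Nduf, Uqcr, Cox4 to Cox8, Atp5, mt-Nd, mt-Co, mt-Cytb or mt-Atp, or are Sdha, Sdhb, Sdhc or Sdhd, without symbols that carry the pseudogene mark -ps. This gave 110 members among 55367 symbols, 97 of them encoded in the nucleus and 13 in mitochondrial DNA. They were grouped by complex, with the Ndufaf assembly factors of complex I kept apart from its subunits and with Ndufa4 and Ndufa4l2, named for complex I, placed in complex IV. The test was run on the 98 members whose mean reached 10 reads, 85 nuclear and all 13 mitochondrial.

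LLC is a line derived from a Lewis lung carcinoma, labelled as wild type and grown in medium with fetal bovine serum. Cells were kept for 46 h with 5 µM STM2457 in the treated group, or with the solvent DMSO in the control group, and each group held 3 libraries of messenger RNA. STM2457 inhibits METTL3, the enzyme that writes N6-methyladenosine on messenger RNA. Whether the libraries of a group stem from separate cultures is not in the labels, so the p-values reflect spread between libraries that may be purely technical.

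The respiratory chain passes electrons from NADH (complex I) and succinate (complex II) through coenzyme Q to complex III, then by cytochrome c to complex IV, where oxygen is reduced. Complexes I, III and IV pump protons across the inner mitochondrial membrane, and complex V, the ATP synthase, uses the gradient to make ATP. All complexes except complex II join subunits read from nuclear genes with subunits read from mitochondrial DNA, whose transcripts are cut out of long precursors that cover most of a strand. Assembly factors help to build a complex and are not part of the finished enzyme.

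The libraries held 17671712 to 17917213 reads in genes. A count of 0 allows up to 3 reads, or 0.167 to 0.170 CPM (reads scaled to library size), counting error only. Values below are reads recovered from the deposited log2 values, and folds, STM2457 over DMSO, were fitted to those reads with limma-voom. Adjusted p-values come from limma on the deposited log2 values themselves, with Benjamini-Hochberg adjustment over all 12618 tested genes, and a gene with an adjusted p under 0.05 is said to have passed. The background was high: 7108 of all tested genes passed, or 56.3% (30.7% higher and 25.7% lower after STM2457). The line's labelled lung carcinoma origin was not visible in epithelial markers: Epcam and Cdh1 were at 0 in every library and Krt8, Krt18 and Krt19 at 0 to 8 reads, while Vim had 46146 to 54075 reads. The leukocyte markers summed to 0 to 0.167 CPM after STM2457 and to 0 to 0.0566 in DMSO. Macrophage and neutrophil markers summed to 5.20 to 6.64 and to 5.32 to 6.62 CPM, nearly all from Cd68, and endothelial markers to 0.280 to 0.558 and to 0.283 to 0.396. Fibroblast markers summed to 1049 to 1166 CPM after STM2457 and to 1424 to 1532 in DMSO, mostly from Col3a1 with 18416 to 26676 reads; 1 of the 7 rose and 3 fell, and their part in the results below was not tested.

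Most respiratory chain transcripts stayed close to their DMSO level. Of the 98 tested members 31 passed, or 31.6% against the background of 56.3%, with 21 higher and 10 lower after STM2457. Nuclear members accounted for 18 of the higher and 9 of the lower, and mitochondrial members for 3 of the higher and 1 of the lower. The 3 libraries of a group lay apart from the 3 of the other in 36.7% of tested members, against 61.8% of all tested genes. Of the 85 nuclear members 82 averaged 200 reads or more, and of all tested genes at that level 62.4% passed. The median fold was 1.000 in nuclear members, 1.011 in mitochondrial members and 1.002 in all tested genes. Within 1.1-fold of DMSO in either direction lay 74.1% of the nuclear members and 34.6% of all tested genes. These shares were set side by side and were not tested against each other. In bulk samples, fewer cells of a kind and less RNA per cell cannot be told apart.

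The balance between higher and lower nuclear members depended on the scaling of the libraries. The 18 higher and 9 lower became 10 and 27 when libraries were centred on their upper quartile, 10 and 24 after quantile normalisation, and 17 and 14 by limma-voom on the recovered reads. Over all tested genes, upper-quartile centring gave 2819 higher and 4814 lower, and the median log2 difference was -0.034 with it and 0.004 without. Of the 31 members that passed, 17 passed in the same direction under all 15 alternative settings: Ndufaf1, Ndufaf2, Ndufaf4, Ndufa11, Ndufa12, Ndufv1, Ndufv2, Ndufv3, Ndufb9, Uqcrfs1, Uqcr10, Cox5a, Cox6a1, Cox6b1, Cox8a, Atp5c1 and mt-Nd2.

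**Figure D1:**
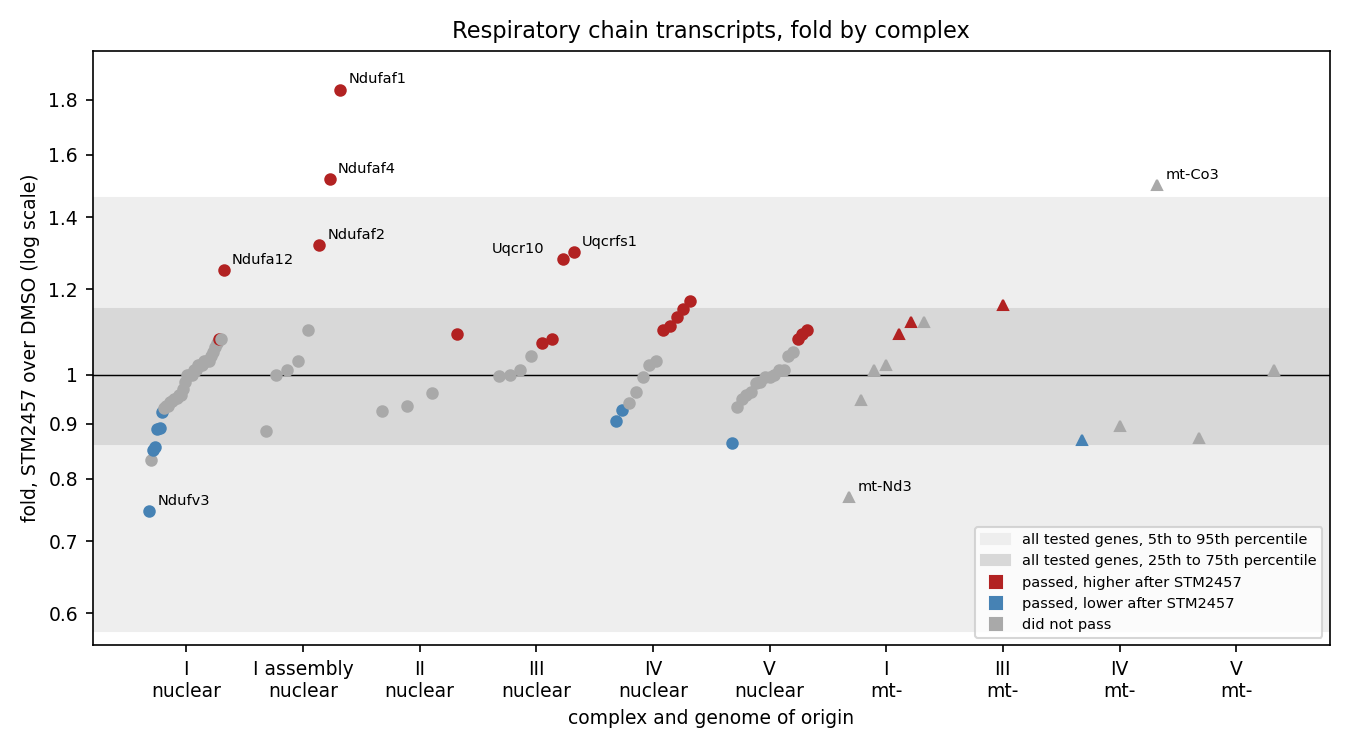
Fold of each of the 98 tested members, STM2457 over DMSO on a log scale, by complex and genome of origin, fitted to recovered reads. Circles are nuclear and triangles mitochondrial genes, red and blue mark members that passed the limma test, and grey bands span the 5th to 95th and the 25th to 75th percentile of all tested genes. Most members sit inside the inner band, and Ndufaf1 (1.84), Ndufaf4 (1.52) and mt-Co3 (1.50, not passed) lie above the outer band.

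The largest rises were in assembly factors of complex I. Of the 8 tested Ndufaf genes 3 rose, 0 fell and 5 did not pass, and these counts held under each alternative. That is 37.5% called, all of them higher, against 56.3% called and 30.7% higher among all tested genes. Ndufaf1, which encodes a factor of the intermediate that builds the membrane arm of complex I, had 752, 732 and 679 reads after STM2457, against 396, 371 and 392 in DMSO. The groups lay far apart, and the fold was 1.84 (95% interval 1.69 to 2.00, limma adjusted p = 1.4e-11). The gene lies on chromosome 2 from 119655446 to 119662827, minus strand. Ndufaf4, another factor that acts early in assembly, had 631, 633 and 670 reads after STM2457, against 425, 431 and 397 in DMSO. It rose 1.52-fold (1.40 to 1.66, limma adjusted p = 4.5e-09). Ndufaf2, which acts late in assembly and is a paralogue of the subunit gene Ndufa12, had 613, 571 and 493 reads after STM2457, against 477, 391 and 391 in DMSO. The groups did not overlap, but the lowest treated library was close to the highest control, and the fold was 1.32 (1.17 to 1.48, limma adjusted p = 0.0012). Its transcripts share 64.1% of their 50-base windows with B230220B15Rik, an annotated gene on the other strand that had 0 to 3 reads in each library.

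The other Ndufaf genes did not pass. In DMSO all of them except Ndufaf7, with 527, 527 and 506 reads, had fewer reads than the Ndufaf genes that rose. Ndufaf8 had 362, 324 and 348 reads after STM2457, against 310, 288 and 327 in DMSO (1.10-fold, limma adjusted p = 0.092). Ndufaf3 was the lowest nuclear member tested, with 121, 108 and 74 reads against 112, 99 and 121 (adjusted p = 0.39). Ndufaf5, Ndufaf6 and Ndufaf7 lay at 0.998 to 1.03 of the DMSO level.

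The promoters of the assembly factor genes with the strongest rises and of Ndufv3, the subunit gene with the strongest fall, are shown so that their upstream sequences can be compared. They are the 250 bases before the RefSeq start on the GRCm38.p6 build, with capitals marking a match to a motif searched below.
Ndufaf1 promoter, chr2:119662835-119663084, minus strand: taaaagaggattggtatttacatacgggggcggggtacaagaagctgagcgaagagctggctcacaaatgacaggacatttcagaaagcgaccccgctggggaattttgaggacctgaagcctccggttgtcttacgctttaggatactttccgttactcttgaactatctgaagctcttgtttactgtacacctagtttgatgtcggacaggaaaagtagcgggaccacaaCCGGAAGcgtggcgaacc
Ndufaf4 promoter, chr4:24897833-24898082, plus strand: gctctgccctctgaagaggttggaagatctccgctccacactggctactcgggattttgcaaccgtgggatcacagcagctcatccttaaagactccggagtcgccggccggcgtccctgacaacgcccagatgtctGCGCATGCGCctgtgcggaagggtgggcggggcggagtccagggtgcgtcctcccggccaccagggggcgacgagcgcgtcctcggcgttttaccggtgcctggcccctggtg
Ndufv3 promoter, chr17:31519865-31520114, plus strand: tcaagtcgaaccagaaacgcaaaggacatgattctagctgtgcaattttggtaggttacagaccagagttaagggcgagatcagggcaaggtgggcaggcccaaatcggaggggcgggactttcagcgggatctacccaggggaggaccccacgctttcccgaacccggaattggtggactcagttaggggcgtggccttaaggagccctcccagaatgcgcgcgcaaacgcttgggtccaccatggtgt

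Upstream windows of 250 bases were found for 76 members, 81 windows in all, and both strands were searched for the motifs of factors known to act on respiratory genes. The NRF1 motif GCGCNTGCG was in 23.5% of the member windows, against 5.19% of 32851 promoter windows of the same length, and Ndufaf4 holds it on both strands in overlapping positions. The ETS motif CCGGAAG, read by the factor GABP among others, was in 17.3% of member windows against 6.91% of all, and stands near the start of Ndufaf1. A YY1 motif, AANATGGCG, was in 3.7% against 1.12%, and the hypoxia element ACGTG in 19.8% against 16.6%. By direction, the NRF1 motif stood in 6 of 17 windows of members that rose, in 2 of 10 of members that fell and in 11 of 50 of those that did not pass. The ETS motif stood in 6 windows of members that rose, in 0 of members that fell and in 8 of those that did not pass. None of the motifs was found in the Ndufv3 window, or in those of Ndufaf2, Uqcrfs1, Uqcr10 and Cox8a, which rose. Windows with the NRF1 motif included those of Ndufa12, which rose, and of Atp5c1, which fell. A match is a description of these letters and not a site, and neither these shares nor the counts by direction were tested.

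Complex I subunits changed little and, where they did, more often downward. Of 36 tested nuclear subunit genes, 2 rose, 6 fell and 28 did not pass, and upper-quartile centring gave 1 and 16. In the main fit that is 5.56% higher and 16.7% lower, against 30.7% and 25.7% of all tested genes. Ndufv3, a subunit of the NADH-binding module, showed the largest fall: it had 1467, 1372 and 1374 reads after STM2457, against 1894, 1730 and 1949 in DMSO. No treated library reached the lowest control, and the fold was 0.747 (0.701 to 0.796, limma adjusted p = 1.4e-07). Of its partners in that module, Ndufv1 and Ndufv2 moved the same way by less. Ndufv1, which binds NADH and the flavin, had 1710, 1662 and 1653 reads against 1783, 1926 and 1868 in DMSO (0.890, adjusted p = 0.0022). Ndufv2, an iron-sulphur protein beside it, had 2131, 2035 and 1959 reads against 2283, 2266 and 2224 in DMSO (0.892, adjusted p = 0.0024). In both genes every treated library lay below every control. Ndufs1, the large iron-sulphur subunit of the same module, had 2595, 2504 and 2520 reads after STM2457 and 2480, 2508 and 2369 in DMSO, and did not pass (1.02-fold, adjusted p = 0.39).

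Among the accessory subunits Ndufa12 stood out by rising. It had 1330, 1421 and 1276 reads after STM2457, against 1063, 1066 and 1046 in DMSO, which is 1.25-fold (1.17 to 1.33, limma adjusted p = 2.0e-06). Ndufa12 transcripts share 17.7% of their 50-base windows with Gm15920. Ndufa8 also passed, at 1.08-fold (adjusted p = 0.03), but its groups overlapped and the call was lost without STM2457 replicate 1 (0.14), STM2457 replicate 2 (0.093), DMSO replicate 1 (0.11) or DMSO replicate 2 (0.056). Ndufb9 had 1093, 1036 and 991 reads after STM2457, against 1259, 1214 and 1148 in DMSO (0.851, adjusted p = 4.3e-04). Its exons overlap Gm49356 on the same strand. Ndufa11 had 678, 662 and 651 reads against 840, 750 and 709 in DMSO (0.857, adjusted p = 0.0035), and overlaps Vmac on the other strand. Ndufa7 fell slightly, to 0.922 (adjusted p = 0.022), and did not pass without STM2457 replicate 1 (0.07), STM2457 replicate 3 (0.073) or DMSO replicate 3 (0.077). Of the 7 core subunits encoded in the nucleus, which carry the electron path, 2 fell (Ndufv1 and Ndufv2) and 0 rose.

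Complex II, which is wholly nuclear-encoded, showed small and opposite shifts. Sdhd, a membrane anchor, had 1684, 1572 and 1554 reads after STM2457, against 1501, 1404 and 1469 in DMSO (1.09-fold, adjusted p = 0.02). That call was lost without STM2457 replicate 1 (0.15) or DMSO replicate 2 (0.08) and with upper-quartile centring (0.25). Sdhc, the other anchor, had 2396, 2333 and 2305 reads after STM2457 and 2377, 2501 and 2550 in DMSO (0.935, adjusted p = 0.065). Sdhb, the iron-sulphur subunit, had 1689, 1551 and 1529 reads after STM2457 and 1640, 1729 and 1717 in DMSO (0.925, adjusted p = 0.053). Both passed as lower without DMSO replicate 1 (0.018 for Sdhc, 0.027 for Sdhb), and Sdhb also without STM2457 replicate 1 (0.016). By limma-voom on the recovered reads, the fit that gives the folds, both passed as lower with all libraries (0.038 for Sdhc, 0.035 for Sdhb). Sdha, the flavoprotein that oxidises succinate, lay at 0.962 of its DMSO level and did not pass (adjusted p = 0.27). In the main fit 1 gene of this complex rose, 0 fell and 3 did not pass. The background was 30.7% higher and 25.7% lower, and the difference from it was not tested. With upper-quartile centring 0 rose and 3 fell in this complex.

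Complex III moved upward where it moved. Of 8 tested nuclear genes 4 rose, 0 fell and 4 did not pass, and upper-quartile centring left 2 higher and 0 lower. The background in the main fit was 56.3% called, with 30.7% higher and 25.7% lower. The share called in complex III was thus below that of all tested genes, and all its calls were higher. The difference from the background was not tested. Uqcrfs1, the Rieske iron-sulphur protein that hands electrons towards cytochrome c, had 3037, 3154 and 2985 reads after STM2457, against 2328, 2284 and 2336 in DMSO. The groups were far apart relative to their spread, and the fold was 1.30 (1.24 to 1.37, limma adjusted p = 7.2e-09). Uqcr10, a small subunit of the same complex, had 2627, 2708 and 2530 reads after STM2457, against 1856, 1997 and 2203 in DMSO (1.28-fold, 1.20 to 1.37, adjusted p = 4.4e-06). The core proteins Uqcrc1 and Uqcrc2 did not pass: Uqcrc1 lay at 1.04 and Uqcrc2 at 0.996 of the DMSO level, with adjusted p-values of 0.19 and 0.95. The remaining calls were weak. Uqcrb rose 1.08-fold (adjusted p = 0.024) and was lost without STM2457 replicate 1 (0.17), STM2457 replicate 2 (0.077) or DMSO replicate 2 (0.1). Uqcrq rose 1.07-fold (adjusted p = 0.049) and was lost without STM2457 replicate 1 (0.29), STM2457 replicate 2 (0.17), DMSO replicate 1 (0.085) or DMSO replicate 3 (0.15). Exons of Uqcrb overlap Gm10767 on the other strand.

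Complex IV held the largest share of called nuclear subunits, 7 of 12 tested or 58.3%, close to the background of 56.3%. There were 5 higher and 2 lower, and 4 of each with upper-quartile centring. Cox8a, the widely expressed form of subunit VIII, had 9421, 9467 and 9375 reads after STM2457, against 7899, 7980 and 8030 in DMSO. Replicates were very close together and the fold was 1.17 (1.12 to 1.22, limma adjusted p = 4.8e-06). Cox5a, which binds on the matrix side, had 1515, 1493 and 1467 reads against 1266, 1258 and 1307 in DMSO (1.15-fold, adjusted p = 1.6e-04), and overlaps Gm26631 on the other strand. Cox6a1 had 5154, 4961 and 4838 reads against 4355, 4405 and 4336 in DMSO (1.13-fold, adjusted p = 2.0e-04). Cox6b1, which faces cytochrome c, had 3484, 3446 and 3332 reads against 3028, 2996 and 3127 in DMSO (1.11-fold, adjusted p = 0.0013). In these 4 genes all treated libraries were above all controls. Cox7c also passed, at 1.10-fold (adjusted p = 0.011), but not with upper-quartile centring (0.12). Its groups overlapped in the deposited values: DMSO replicate 3 had 5034 reads, against 4395 and 4390 in DMSO replicates 1 and 2.

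The calls in the other direction were less stable. Cox7a2l, which joins complexes III and IV in a supercomplex, had 2432, 2379 and 2307 reads after STM2457, against 2510, 2575 and 2494 in DMSO (0.927, adjusted p = 0.03). It did not pass without STM2457 replicate 2 (0.074), STM2457 replicate 3 (0.14), DMSO replicate 2 (0.054) or DMSO replicate 3 (0.053). Cox5b, a zinc-binding subunit, had 2867, 2853 and 2483 reads against 3165, 2861 and 2907 in DMSO (0.906, adjusted p = 0.047). Its lower mean rested on STM2457 replicate 3, without which its adjusted p was 0.27. It was also lost without DMSO replicate 1 (0.17) or DMSO replicate 3 (0.081). Cox4i1 (0.964, adjusted p = 0.3), Cox6c (1.02, adjusted p = 0.43) and Ndufa4 (0.995, adjusted p = 0.97) did not pass.

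The catalytic transcripts of complex V did not pass, and a lower transcript of the shaft subunit did. Atp5b, the catalytic beta subunit and the nuclear member with the most reads, had 34030, 33757 and 34014 reads after STM2457 and 33423, 33191 and 32997 in DMSO. The fold was 1.01 with an interval of 0.969 to 1.05 (adjusted p = 0.62). Atp5a1, the alpha subunit, had 16422, 15829 and 16147 reads after STM2457 and 16397, 15909 and 15787 in DMSO (0.994, 0.951 to 1.04, adjusted p = 0.98). Atp5c1, the gamma subunit that forms the rotating shaft between them, differed: it had 6531, 6599 and 6598 reads after STM2457, against 7553, 7534 and 7458 in DMSO. The groups were separated by many times their spread, and the fold was 0.864 (0.826 to 0.903, limma adjusted p = 2.8e-05). Of 17 tested nuclear genes 3 rose, 1 fell and 13 did not pass, and upper-quartile centring gave 0 higher and 4 lower. In the main fit that is 17.6% higher and 5.88% lower, against 30.7% and 25.7% of all tested genes. Small subunits made up the rises. Atp5l (1.10-fold, adjusted p = 0.0046), Atp5j2 (1.09-fold, 0.0064) and Atp5j (1.08-fold, 0.031) all lost their call with upper-quartile centring, and Atp5j also without STM2457 replicate 1 (0.19), STM2457 replicate 2 (0.091), DMSO replicate 2 (0.082) or DMSO replicate 3 (0.15). Exons of Atp5j overlap Gabpa and those of Atp5l overlap Gm30934, both on the other strand.

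**Figure D2:**
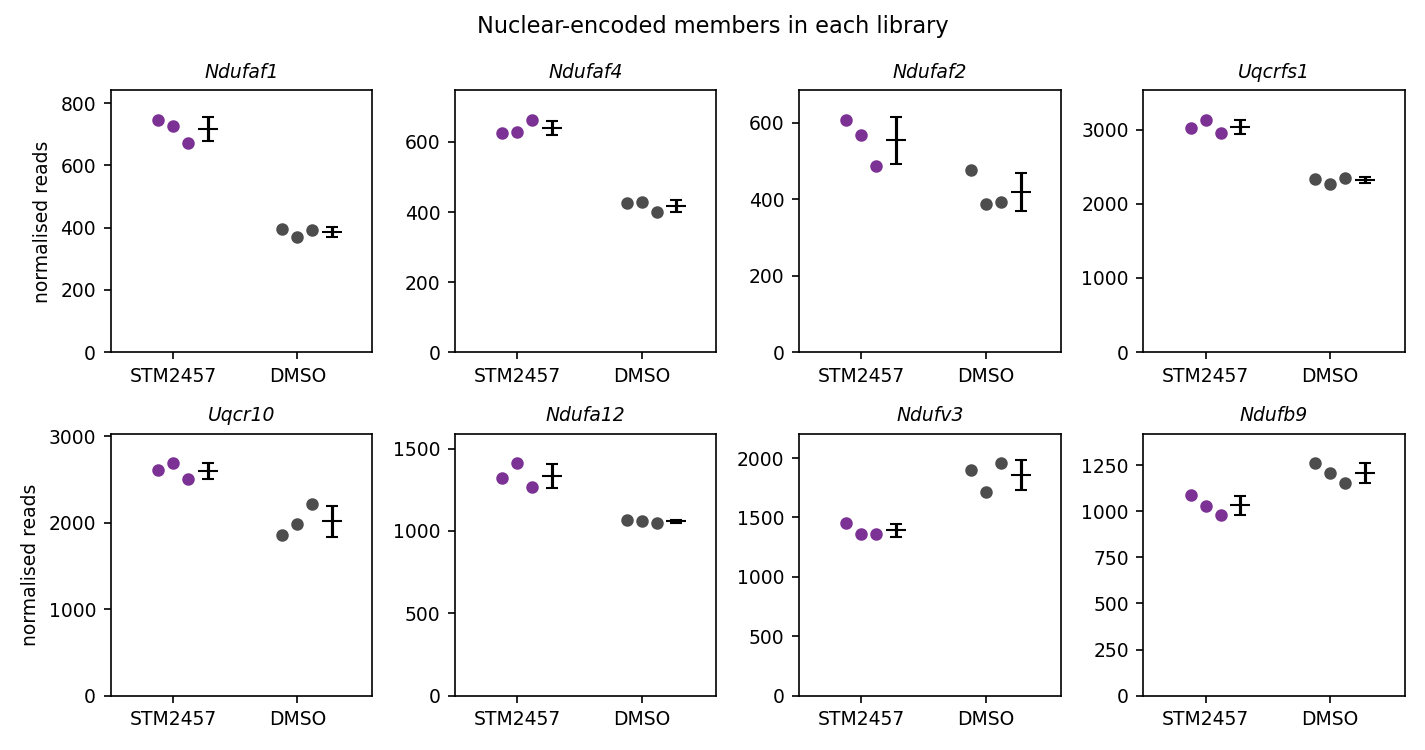
Normalised reads (reads over size factor) of 8 nuclear members in each library, with STM2457 left and DMSO right of each panel and axes that start at 0. Points are libraries, and bars give the mean and SD of 3. Ndufaf1 averaged 716 ± 38.4 after STM2457 and 386 ± 15.6 in DMSO, Uqcrfs1 3036 ± 90.0 and 2315 ± 42.0, and Ndufv3 1394 ± 54.7 and 1857 ± 125.

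Levels per length placed the complexes on different scales. They were set as RPKM, reads per kilobase of exon scaled to library size, with exon lengths from the GENCODE annotation. The median nuclear complex I subunit stood at 48.6 RPKM after STM2457 and 47.7 in DMSO. Medians in complex II were 54.0 and 55.0, in complex III 101 and 88.2, in complex IV 128 and 126, and in complex V 73.9 and 70.0, with STM2457 before DMSO in each pair. The Ndufaf assembly factors had a far lower median than the subunits they serve, 9.57 RPKM after STM2457 and 8.19 in DMSO. The ranges overlapped: the subunit Ndufb2 was the lowest nuclear member, at 1.42 RPKM after STM2457 and 1.69 in DMSO. The lowest assembly factor, Ndufaf3, had 3.11 and 3.45. Cox8a had the highest level among nuclear members, 850 ± 3.24 RPKM after STM2457 and 728 ± 5.88 in DMSO (SD, n = 3). After STM2457 Ndufaf1 was the most abundant of the assembly factors at 26.8 ± 1.37 RPKM, whereas in DMSO Ndufaf8 was highest at 20.9 RPKM and Ndufaf1 had 14.6 ± 0.507. Nuclear members together took 1.28% ± 0.024 of the reads in genes after STM2457 and 1.27% ± 0.0049 in DMSO.

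**Figure D3:**
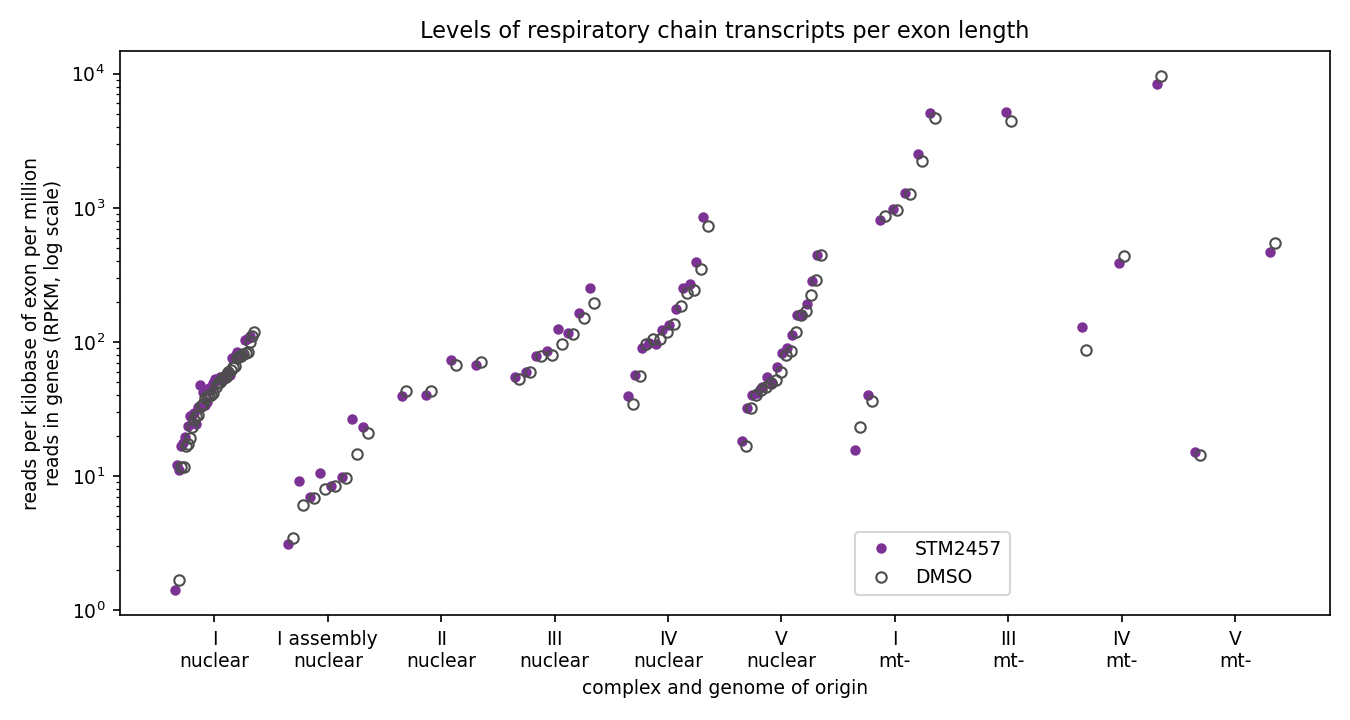
Level of each tested member with an exon length, in RPKM on a log axis, by complex and genome of origin, as the mean of 3 libraries. Filled purple points are STM2457, to the left of open grey points for DMSO. Assembly factors have the lowest median among the nuclear groups, although the lowest nuclear point is the subunit Ndufb2. The highest point is mt-Co1 (8317 after STM2457, 9548 in DMSO).

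Tissue-restricted and inducible isoforms were near or at the detection limit. Cox8b and Cox8c were at 0 in every library, and Cox6b2, Cox7b2 and Cox4i2, the lung and hypoxia form of subunit IV, had 0 to 2 reads. Ndufa4l2, known for its induction by hypoxia, had 2, 2 and 3 reads after STM2457 and 2, 2 and 4 in DMSO. The muscle forms came closest to the limit for testing: Cox6a2 had 3, 5 and 10 reads after STM2457 and 12, 13 and 10 in DMSO, and Cox7a1 had 7, 4 and 2 reads and 8, 8 and 6. The remaining untested members, Ndufa11b, Ndufb4c, Ndufs6b and Cox6c2, are annotated as processed pseudogenes and had 0 to 9 reads.

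The mitochondrial genome's messages did not move as a block. Together its 13 members took 3.09% ± 0.14 of the reads in genes after STM2457 and 3.13% ± 0.077 in DMSO (SD, n = 3). Within that total, mt-Cytb, mt-Nd1 and mt-Nd2 rose and mt-Co1 fell. Of the members 4 passed, or 30.8% against the background of 56.3%.

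mt-Co1, the catalytic subunit of complex IV and the transcript with the most reads, had 220831, 224667 and 244566 reads after STM2457, against 254983, 265724 and 261584 in DMSO. It fell to 0.870 (0.831 to 0.912, limma adjusted p = 1.5e-04). All treated libraries were below all controls. mt-Cytb, the complex III subunit that binds coenzyme Q, had 102221, 104314 and 109860 reads, against 87466, 92812 and 89312 in DMSO (1.16-fold, 1.11 to 1.21, adjusted p = 1.7e-05). mt-Nd2, a proton-pumping subunit of complex I, had 43443, 47921 and 48028 reads, against 39635, 41434 and 41739 in DMSO (1.12-fold, 1.06 to 1.18, adjusted p = 8.0e-04). mt-Nd1, which helps to form the coenzyme Q channel, had 83765, 89446 and 88338 reads, against 79921, 79866 and 77254 in DMSO (1.09-fold, adjusted p = 0.0033). In each of these 3 genes no treated library fell into the control range. With upper-quartile centring mt-Nd1 did not pass (0.09). Quantile normalisation left mt-Cytb at an adjusted p of 0.099 and set mt-Co1, the top gene of each library, to the same value in all of them by construction.

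Ratios within a library do not depend on how libraries are scaled. The ratio of mt-Cytb to mt-Co1 reads was 0.463, 0.464 and 0.449 after STM2457, against 0.343, 0.349 and 0.341 in DMSO, or 1.33 times as high. The ratio of mt-Nd2 to mt-Co1 was 0.197, 0.213 and 0.196, against 0.155, 0.156 and 0.160 in DMSO, and that of mt-Nd1 to mt-Co1 was 0.379, 0.398 and 0.361, against 0.313, 0.301 and 0.295. The libraries of each group were close together and the groups did not overlap in any of the 3 ratios, which shows unequal change and not which of the genes moved. These pairs were chosen after the values were seen and were not tested.

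The other mitochondrial complex I genes were level or not resolved. mt-Nd4 had 30104, 32994 and 31990 reads after STM2457 and 29598, 32071 and 31716 in DMSO (1.01-fold, adjusted p = 0.75). mt-Nd5 had 29543, 33129 and 32821 reads and 29683, 30259 and 32753 in DMSO (1.02-fold, adjusted p = 0.57). Quantile normalisation called both higher, with adjusted p-values of 0.0044 for mt-Nd4 and 0.0083 for mt-Nd5. mt-Nd6, the message of the other strand, had 6766, 7959 and 8075 reads and 7551, 8282 and 7885 in DMSO (0.947, adjusted p = 0.35). The strand setting of the counting was not given in the sources used here, so reads of mt-Nd6 and of mt-Nd5, which overlap at their ends, cannot be told apart there.

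Of the remaining mitochondrial members, 5 varied widely between replicates, and nearly all of their sequence is also found in the nuclear genome. The share of a transcript's 50-base windows that also occur in an annotated gene outside mitochondrial DNA was 99.9% for mt-Co3, 99.5% for mt-Atp6, 98.8% for mt-Nd4l and 98.0% for mt-Nd3, and all 635 windows of mt-Co2 were shared. The share was 62.2% for mt-Nd4, 51.1% for mt-Co1, 8.2% for mt-Nd2, 7.6% for mt-Nd5 and 0 for mt-Nd1, mt-Nd6, mt-Cytb and mt-Atp8. Reads from such windows cannot be placed by their sequence, and the handling of reads with several places was not given in the sources used here. A clear case is mt-Atp6, a proton channel subunit of complex V: over the 678 aligned bases it is identical at 678 to Gm10925, an unprocessed pseudogene on chromosome 1 from 24613974 to 24614651. A stretch of 60 bases from both is shown as an example, on the GRCm38 build in GENCODE, with no capitals because the stretches do not differ.
mt-Atp6, chrM:8197-8256, plus strand: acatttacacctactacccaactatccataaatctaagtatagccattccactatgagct
Gm10925, chr1:24614322-24614381, minus strand: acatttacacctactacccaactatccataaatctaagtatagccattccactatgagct

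These 5 genes could not be resolved. mt-Atp6 had 5676, 6930 and 4571 reads after STM2457 and 4671, 8786 and 6342 in DMSO (0.873, interval 0.575 to 1.33, limma adjusted p = 0.64). Gm10925 itself had 3547, 3738 and 3564 reads after STM2457 and 12126, 4460 and 3668 in DMSO, with DMSO replicate 1 far above the rest. mt-Co3, a core subunit of complex IV, had 1353, 1853 and 2213 reads after STM2457 and 1062, 1663 and 887 in DMSO, and its fold of 1.50 had an interval of 0.961 to 2.36 (adjusted p = 0.2). It passed only when the variance trend and robust priors were left out (0.023). mt-Co2, which accepts electrons from cytochrome c, had 4434, 3964 and 5914 reads after STM2457 and 5358, 6405 and 4054 in DMSO (0.896, adjusted p = 0.65). mt-Nd3 had 98, 110 and 82 reads after STM2457 and 260, 81 and 89 in DMSO, and DMSO replicate 1 alone set its fold of 0.769 (adjusted p = 0.57). mt-Nd4l had 188, 190 and 266 reads after STM2457 and 169, 242 and 158 in DMSO (1.12-fold, adjusted p = 0.5), and passed as higher without DMSO replicate 2 (0.022). The groups of all 5 genes overlapped.

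Adding the reads of the annotated nuclear copies made no further call among mitochondrial members. The coefficient of variation was lower in both groups for mt-Co2, mt-Co3, mt-Atp6 and mt-Nd4l. For mt-Nd3 the copies made it higher after STM2457, where it was 14.7% for its own reads, and lower in DMSO, at 37.2% against 70.7% for its own reads. The coefficient of variation of mt-Co3 was 23.8% after STM2457 and 33.1% in DMSO for its own reads, and 16.0% and 17.0% with the copies. With copies added, mt-Atp6 stood at 0.702 (limma-voom adjusted p = 0.14), mt-Co3 at 1.44-fold (0.079), mt-Co1 at 0.870 (3.4e-05) and mt-Cytb at 1.16 (7e-06). The same genes, apart from mt-Atp8, were the lowest per length: mt-Nd3 stood at 15.5 RPKM after STM2457 and 23.3 in DMSO, mt-Nd4l at 40.4 and 36.1, mt-Co3 at 129 and 86.9, mt-Co2 at 390 and 436, and mt-Atp6 at 470 and 548. All others except mt-Atp8 lay between 818 for mt-Nd6 and 8317 for mt-Co1 after STM2457, and between 862 and 9548 in DMSO. mt-Atp8, whose exon overlaps that of mt-Atp6, had only 44, 46 and 74 reads after STM2457 and 53, 56 and 47 in DMSO (1.01-fold, 0.779 to 1.31, adjusted p = 0.83). Its coefficient of variation was 30.5% after STM2457 and 8.28% in DMSO, although none of its windows is shared with the nuclear genes. It was the member closest above the limit for testing.

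**Figure D4:**
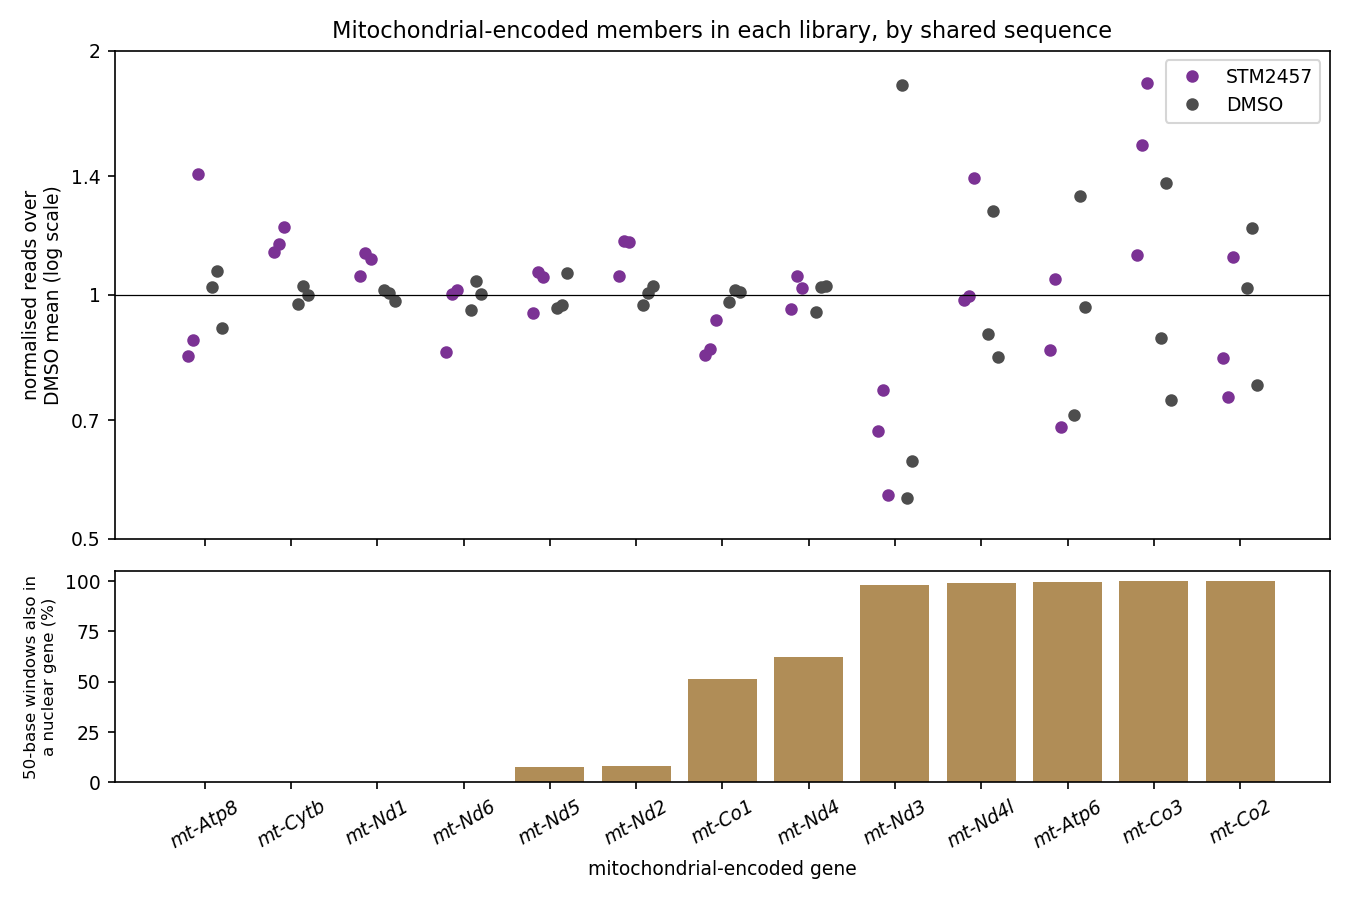
Upper panel: normalised reads of the 13 mitochondrial members in each library divided by the DMSO mean, on a log axis, with STM2457 in purple left of DMSO in grey. Lower panel: percentage of each transcript's 50-base windows that also occur in an annotated nuclear gene, by which genes are ordered. Points of a group lie close together for mt-Cytb, mt-Nd1, mt-Nd2 and mt-Co1 and scatter widely for the 5 genes with 98.0% or more shared and for the treated libraries of mt-Atp8.

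Genes that serve the chain without being members moved in both directions. The lists were written for this question with earlier results of these data known. Of the assembly factors of all complexes together, Ndufaf genes included, 45 were tested, 17 rose, 7 fell and 21 did not pass, which is 53.3% called against the background of 56.3%. Within 1.1-fold of DMSO lay 35.6% of them, close to the 34.6% of all tested genes. The structural subunits encoded in the nucleus numbered 77, of which 15 rose, 9 fell and 53 did not pass, or 31.2% called. The difference between these shares was not tested.

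Among assembly factors outside the member rule, Coa7 rose most: it had 335, 348 and 288 reads after STM2457, against 160, 198 and 176 in DMSO (1.79-fold, limma adjusted p = 3.1e-08). Cox17, the chaperone that carries copper to complex IV, fell most, with 125, 108 and 124 reads after STM2457, against 241, 245 and 237 in DMSO (0.488, adjusted p = 1.4e-09). For complex IV as a whole, 8 of 17 tested factors rose and 3 fell. Among all tested genes 30.7% were higher and 25.7% lower, and no list of factors was tested against this background. Rises included the haem enzyme gene Cox10 (1.39), Coa6 (1.42) and Coa5 (1.20), while Cox15, which makes haem a after Cox10, fell to 0.770. In complex I, Tmem70 (1.34), which also serves complex V, and Ecsit (1.30) rose and Tmem186 (0.842) and Timmdc1 (0.853) fell, among 8 tested factors. Without STM2457 replicate 1 Timmdc1 did not pass (0.06). For complexes II and III, 3 of 10 rose, Uqcc3 (1.46), Bcs1l (1.26), which inserts the Rieske protein, and Sdhaf2 (1.24), and 2 fell, Lyrm7 (0.808), the Rieske chaperone, and Uqcc2 (0.822). For complex V 1 of 2 rose, Atpaf1 at 1.19-fold.

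The mobile carriers and small partners of the chain were split: of 5 tested genes 1 rose, 2 fell and 2 did not pass. Cycs, cytochrome c itself, had 4463, 4197 and 4098 reads after STM2457, against 3975, 3569 and 3771 in DMSO (1.11-fold, adjusted p = 0.0027). Cyc1, the cytochrome c1 subunit of complex III whose symbol the member rule does not cover, had 3437, 3418 and 3259 reads and 3119, 3211 and 3172 in DMSO (1.05-fold, adjusted p = 0.077), and passed without STM2457 replicate 3 (0.043). Atpif1, the inhibitor of ATP hydrolysis by complex V, had 1488, 1290 and 1238 reads, against 1792, 1755 and 1716 in DMSO (0.751, adjusted p = 2.1e-06). Higd1a, a hypoxia-induced partner of complex IV, fell to 0.756 (adjusted p = 2.4e-04). In coenzyme Q synthesis 3 of 12 tested genes rose and 5 fell. Neither the carriers nor this list was tested against the background of 30.7% higher and 25.7% lower. Coq10b, a carrier protein for coenzyme Q, rose 1.75-fold, with 380, 363 and 362 reads after STM2457 against 201, 220 and 203 in DMSO, and Coq8a, a kinase-like protein of the pathway, had 3, 10 and 7 reads against 26, 32 and 26.

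Most nuclear genes that process mitochondrial RNA were higher after STM2457. In mitochondrial RNA processing and stability 10 of 14 tested genes rose and 3 fell. Among all tested genes 30.7% were higher and 25.7% lower, and the difference from this background was not tested. Fastkd2 had 945, 865 and 918 reads after STM2457, against 596, 644 and 567 in DMSO (1.49-fold, adjusted p = 3.5e-09). Trmt10c, part of the enzyme that cuts the front end of mitochondrial tRNAs, rose 1.34-fold, Elac2, which cuts the rear end, 1.26-fold, and Fastkd5 1.66-fold, with adjusted p-values of 2.3e-07, 1.7e-06 and 3.6e-06 in that order. Lrpprc, which stabilises mitochondrial messages, rose 1.12-fold (adjusted p = 6.5e-04). For replication and transcription of mitochondrial DNA, 6 of 14 rose and 2 fell, beside the same background and also without a test against it. Polrmt, the mitochondrial RNA polymerase, had 1013, 1069 and 1102 reads after STM2457, against 897, 947 and 986 in DMSO (1.11-fold, adjusted p = 0.0091), and was lost without STM2457 replicate 3 (0.061). Tfam, the packaging and transcription factor, had 912, 878 and 892 reads, against 962, 1012 and 963 in DMSO (0.902, adjusted p = 0.015), and was lost without STM2457 replicate 2 (0.063). Tfb1m, which methylates mitochondrial ribosomal RNA, fell to 0.722.

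Of 9 tested nuclear regulators of respiratory genes 6 rose and 2 fell, beside a background of 30.7% higher and 25.7% lower, and the difference was not tested. Pprc1, a coactivator of the PGC-1 family, had 3662, 3772 and 3747 reads after STM2457, against 2325, 2457 and 2343 in DMSO (1.55-fold, limma adjusted p = 1.1e-12). Ppargc1b, of the same family, rose 1.59-fold with 83, 87 and 87 reads against 46, 61 and 53 in DMSO. Ppargc1a had 6 to 11 reads in every library and was not tested. Nrf1, which binds the motif named above, had 1052, 1082 and 1092 reads against 1014, 946 and 858 in DMSO (1.13-fold, adjusted p = 0.0044). It did not pass without DMSO replicate 3 (0.056) or with upper-quartile centring (0.061).

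**Figure D5:**
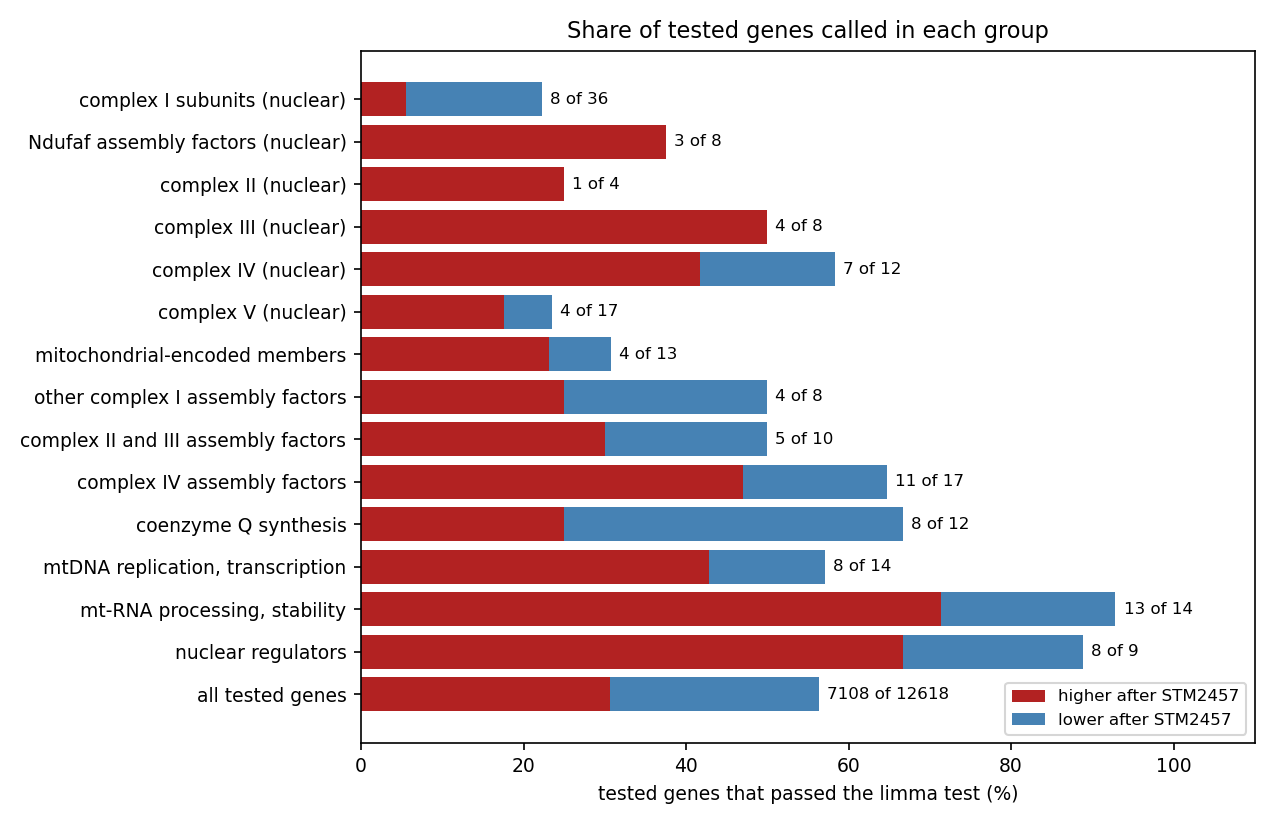
Percentage of tested genes that passed the limma test in each group of members and each larger related list, red for higher and blue for lower after STM2457, with the number that passed of the number tested beside each bar. The bottom bar gives all tested genes (7108 of 12618). Complex I and complex V subunits have the shortest bars (8 of 36 and 4 of 17), and mitochondrial RNA processing the longest (13 of 14).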

How the data were processed

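RNA sequencing of LLC cells gave 6 libraries, 3 treated with STM2457 and 3 with DMSO, grouped by labelled treatment. Per the labels' protocols, TRIzol served for RNA extraction and a SMARTER mRNA-Seq kit for the libraries. Per the submitters' processing notes, the build was GRCm38 and the tools were HISAT2 2.2.1, Subread with featureCounts 2.0.1, DESeq2 and FastQC 0.11.9. Alignment settings, annotation, read length and strand setting were not given in the sources used here.

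Values are log2 as the authors deposited them, 1 row per gene symbol. Their transform was not given in the sources used here; judged by the values, it is a regularised log2, which shrinks differences towards the mean: at high counts 59.9% of a log2 difference is kept. Its equations were inverted to recover reads, with a ridge penalty of 60.20 and a dispersion of 1.897 over the mean plus 0.0111. Of the values of 17555 genes with a mean under 500 reads, 98.7% were whole within 0.05 reads before rounding, 88.1% from 500 to 2000 reads and 72.0% above, where reads are approximate. The inversion and the fit were also run on simulated counts put through the same equations and settings. Such a run cannot tell whether the authors used this transform.

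The 12618 genes whose deposited values averaged 3.32 or more (log2 of 10 reads) were tested with limma 3.58.1 in R 4.3.3 (lmFit, eBayes with trend and robust priors, statmod 1.5.0), the group as the only term and p-values adjusted by Benjamini-Hochberg over all of them. No pseudocount was needed. Folds, their errors and 95% intervals come from limma-voom on the recovered reads. RPKM, shared 50-base windows and coordinates used GENCODE M21 on GRCm38, and promoters came from RefSeq. Atp5o has more than 1 GENCODE gene and was given no level per length.

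Named genes were chosen by rule: all tested mitochondrial members, up to 4 called nuclear members of smallest adjusted p per complex and direction, calls against the majority of a complex, fixed core subunits and tissue isoforms, the 3 members with most reads, and up to 4 called genes per related list. Ndufa7, Ndufa11, Cox7c, Coa5, Coa6, Lyrm7 and the other Ndufaf genes were added after their values were seen. Of the genes the rule names, 1 is not reported here. Members and lists were chosen with earlier results of these data known. Coa1, Fastkd4 and Kiaa0391 of those lists matched no row of the table. The 14 symbols marked -ps were left out. Ndufb1-ps, the only one of them with more than 22 reads, had 311, 282 and 297 reads after STM2457 and 319, 301 and 349 in DMSO (limma adjusted p = 0.15). Alternatives covered scaling, filter, variance model, limma-voom, library size without mitochondrial genes, a replicate block, each library left out and, chosen after seeing the data, reads of nuclear copies added.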

Additional observations from a re-analysis of the deposited data

How the results depend on the processing

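The count of called members was 31, and 26 to 32 with a library left out. Nuclear members higher were 18, and 13 to 20 with a library left out; nuclear members lower were 9, and 6 to 11. Mitochondrial members higher were 3, and 3 to 4, and lower 1 in each. Over all genes 7108 passed, and 6106 to 6949 with a library left out, 3402 to 3797 higher and 2704 to 3152 lower. Upper-quartile centring gave 10 nuclear members higher and 27 lower, and quantile normalisation 10 and 24, with 0 mitochondrial members lower because that setting gives the top gene the same value in each library. Nuclear members lower were 14 by limma-voom, 15 by limma-voom with library sizes without mitochondrial genes and 14 with nuclear copies added. The cause of these shifts was not tested. Of the 31 members that passed, 17 passed under all 15 alternatives, and none of the 57 members and 41 related genes examined one by one reversed.

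Deviations of same-numbered STM2457 and DMSO libraries from their group means correlated at 0.05, 0.01 and 0.04. For differently numbered libraries the correlations were -0.06 to 0.02. Values this small cannot tell whether the libraries were handled in pairs. A fit with the replicate number as a block called 31 members and 7090 genes, and changed no call of those 57 members and 41 related genes.

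With 3 libraries a group, folds of a few percent cannot be placed on a side of 1 independently of the scaling. For mt-Co2, mt-Co3, mt-Atp6, mt-Nd3 and mt-Nd4l most reads cannot be placed by their sequence, which is shared with nuclear copies. Whether the shared sequence caused the spread between their libraries was not tested.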

Other observations

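Other transcripts of mitochondrial DNA were in the table besides the members, and these rows were chosen after their values were seen. mt-Rnr2, the large ribosomal RNA, had 8175, 8721 and 8769 reads after STM2457, against 6968, 5937 and 7098 in DMSO, and rose 1.27-fold (limma adjusted p = 8.1e-04). The small ribosomal RNA mt-Rnr1 had 8232, 8312 and 8537 reads after STM2457 and 8364, 8088 and 9230 in DMSO, and did not pass (0.966, adjusted p = 0.42). How reads of these RNAs came into messenger RNA libraries was not tested.

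Of the mitochondrial tRNA rows 5 had enough reads to be tested, and 4 of them fell, beside 25.7% of all tested genes. Whether reads in these rows came from mature tRNAs or from longer precursors was not tested. mt-Tp, which carries proline, had 444, 411 and 432 reads after STM2457, against 786, 807 and 1024 in DMSO (0.489, limma adjusted p = 1.0e-05), and the groups lay far apart. mt-Tn, for asparagine, had 124, 67 and 91 reads, against 196, 150 and 142 in DMSO (0.560, adjusted p = 0.0061). mt-Tc, for cysteine, had 47, 46 and 51 reads, against 90, 66 and 75 in DMSO (0.622, adjusted p = 4.8e-04). mt-Tw, for tryptophan, had 9, 7 and 16 reads, against 18, 16 and 22 in DMSO (0.548, adjusted p = 0.035). mt-Tl1, for leucine, did not pass, with 26, 29 and 16 reads and 27, 23 and 14 in DMSO (1.10, adjusted p = 0.68). Trmt10c and Elac2, whose products cut tRNAs from the mitochondrial precursors, rose in the same libraries, as given above, and no relation between the values was tested.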
